A study of Mus musculus with 5 samples.

Results

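TAM 2 is a class of tumour-associated macrophages that the authors' deposited annotation names in CT26 tumours. Its members were taken as every cell that the annotation calls TAM 2, joined to the expression matrix by cell barcode. This gave 1113 of the 8987 annotated CT26 cells, or 12.4% (exact Clopper-Pearson 95% interval 11.7-13.1%), and 21.5% (20.4-22.6%) of the 5180 cells in the 6 monocyte and TAM classes. The other 5 of these classes held 4067 cells: 602 Monocyte 1, 821 Monocyte 2, 1238 Monocyte 3, 447 TAM 1 and 959 TAM 3 cells.

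The cells were live CD45+ leukocytes sorted from CT26 tumours, a colon carcinoma line grown under the skin of BALB/c mice and taken on day 12 after injection. The labels list no treatment, and the library's name carries the word vehicle. The cells form 1 droplet library (10x Genomics, single cells, 25000 cells loaded), and how many mice it holds is not given in the sources used here. Comparison libraries, 1 per condition, came from CD45+ cells of 5555 melanomas in C57BL/6 mice on day 4. The tumour cells were Ptgs+/+ or Ptgs-/-, the latter without prostaglandin-making cyclooxygenase. The third library came from Ptgs-/- tumours in hosts whose NK cells were removed with antibodies against Asialo GM-1 and NK1.1.

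Macrophages in a growing tumour come mostly from blood monocytes that enter it, lose monocyte genes such as Ly6c2 and gain macrophage genes such as those of the complement component C1q. Some also carry Folr2, Lyve1 and Cbr2, genes known from macrophages resident in healthy tissue that sit beside vessels and take up debris. C1q is made of the products of C1qa, C1qb and C1qc, which lie side by side in the genome, and it binds immune complexes and dying cells. TAM classes are also told apart by how much MHC class II they carry, which presents antigen to CD4 T cells, and by their chemokines.

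Because the 6 classes were clustered on these same genes in 1 library, every gene value below is a description with no test, and no p-value is given. A level is the mean over cells of CPM, counts scaled to the same total in every cell. A fold is the difference of log2(mean CPM + 5), on the log2 scale, with TAM 2 minus the other group, and a gene is called higher or lower at 1.5-fold or more. Intervals cover counting error only.

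TAM 2 cells were deeply sampled. Their median was 7771 UMIs (unique molecular identifiers, counted RNA molecules) and 2600 genes per cell, against 8550 UMIs in TAM 1, 4379.5 in TAM 3 and 3268 to 3802.5 in the monocyte classes. Only 5% of TAM 2 cells lay under 5165 UMIs, while 95% of TAM 3 cells lay under 6283. Cells with over 10000 UMIs made up 19.6% of TAM 2 and 25.5% of TAM 1, and none were found in TAM 3 or the monocyte classes. The median mitochondrial share was 2.14% of UMIs, and 1.60% to 2.33% in the other 5 classes.

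TAM 2 cells held macrophage markers, which did not set them apart from Monocyte 3 or TAM 3. All 14 genes of the macrophage list were seen in at least 5% of TAM 2 cells, as in Monocyte 3, TAM 1 and TAM 3. The list summed to 11996 CPM in TAM 2, against 13488 in Monocyte 3, 10358 in TAM 3 and 2130 in TAM 1. Csf1r, the receptor for the macrophage growth factor CSF1, was seen in 89.0% of TAM 2 cells at 343 CPM, and Adgre1, which encodes F4/80, in 61.8% at 173 CPM. The class was not free of monocyte genes. Its classical monocyte list summed to 5407 CPM, against 2337 in TAM 1, 6178 in TAM 3 and 6420 to 13278 in the monocyte classes. Ccr2, the receptor that brings monocytes into tissue, was seen in 93.8% of TAM 2 cells. Of the lists for other cells, plasmacytoid dendritic cells summed to 844 CPM (362 to 1225 in the other 5 classes), cDC1 to 622 (321 to 618) and cDC2 to 506 (248 to 1275). Neutrophils summed to 195 CPM (60.4 to 411), B cells to 85.8 (11.2 to 83.2) and fibroblasts to 30.0 (4.56 to 23.5).

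Genes of natural killer (NK) cells and T cells were also measured in TAM 2, and they lead its comparison with the other classes. The NK list (9 of 10 genes detected, 7 in at least 5% of cells) summed to 808 CPM in TAM 2 and 53.1 to 121 CPM in the other classes, and the T cell list (10 of 10 detected, 7 in at least 5%) to 220 and 41.3 to 137 CPM. At least 10 UMIs of the NK list were found in 124 TAM 2 cells (11.1%, 9.35-13.1%), against 1, 3 and 5 cells of Monocyte 1, 2 and 3, 12 of TAM 1 (2.68%) and 9 of TAM 3 (0.938%). At least 10 UMIs of the T cell list were found in 55 TAM 2 cells (4.94%), 7 TAM 1 cells and 1 TAM 3 cell. A further 18 TAM 2 cells (1.62%) had at least 10 UMIs of Siglech, Ccr9, Cox6a2 and Ly6d, which mark plasmacytoid dendritic cells, and none of the other 5 classes had such a cell (exact upper bounds 0.298% to 0.822%). In all, 188 TAM 2 cells (16.9%) passed at least 1 of these 3 marks.

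On average, the cells marked by NK genes held both macrophage and NK RNA. The 124 cells with NK genes had a macrophage list sum of 7216 CPM and an NK list sum of 6887 CPM, against 315 and 19567 CPM in the 1346 annotated NK cells. Gzma, which encodes granzyme A, stood at 4326 CPM in them, 12280 CPM in NK cells and 13.1 CPM in the 925 TAM 2 cells that passed none of the marks. Those 925 cells had a macrophage list sum of 12872 CPM. The 124 cells had a median of 6712 UMIs, below the 7934 of those 925 cells. Median depths were 2241 UMIs in annotated NK cells, 4379.5 in TAM 3 and 3802.5 in Monocyte 3. Whether each barcode that passed a mark held a single cell was not tested.

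**Figure D1:**
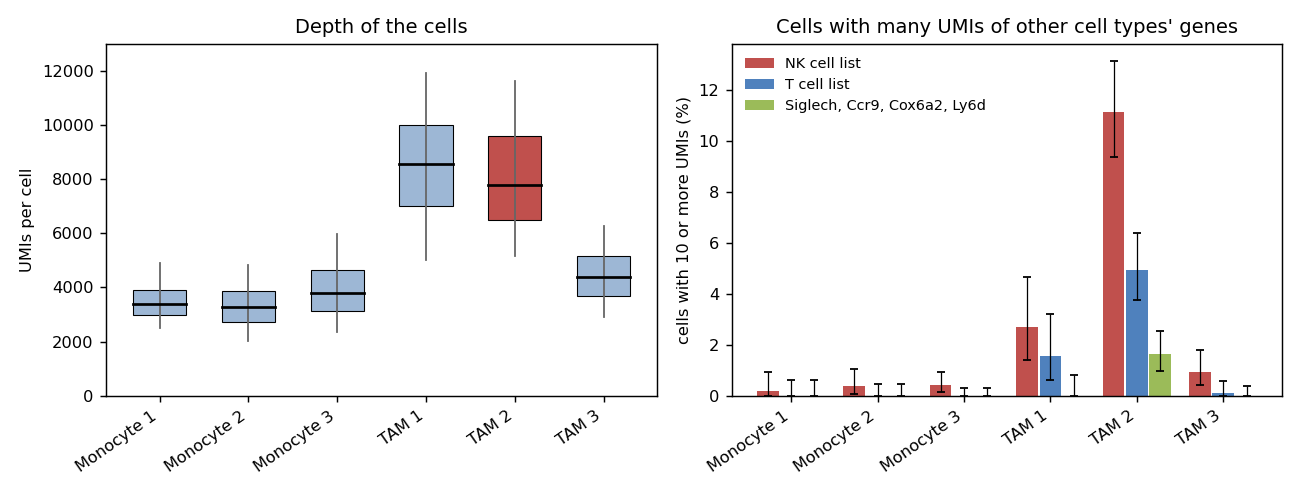
UMIs per cell in the 6 monocyte and TAM classes (left; line, median; box, quartiles; whisker, 5th to 95th percentile) and the percentage of cells with at least 10 UMIs of the NK cell list, the T cell list or 4 plasmacytoid dendritic cell genes (right; bars with exact 95% intervals). TAM 2 has a median of 7771 UMIs and the highest bar for each of the 3 gene sets, at 11.1%, 4.94% and 1.62% of its cells.

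Against the other 5 classes pooled, 291 of 8382 genes tested (3.47%) were higher in TAM 2 and 58 (0.692%) were lower, or 224 and 88 relative to the median of all genes. Of the 12 highest, 11 were genes of NK and T cells or of lymphocytes more widely: Gzma (494 against 47.4 CPM, a fold of 3.25), Nkg7 (3.07), Gzmb (2.75), Prf1, which encodes perforin (2.58), Ctsw, Ncr1, Ptprcap, Klrd1, Ctla2a, Sept1 and Cd3g, an invariant chain of the T cell receptor complex (2.07). The other was the chemokine Ccl8, at 1004 against 192 CPM (2.36). Because of this, the leading genes and the list counts against the pooled classes are also given over cells without a single UMI of the T and NK lists. That left 580 TAM 2 cells (52.1%) and 2927 others (72.0%), among which 301 of 8283 genes (3.63%) were higher and 89 (1.07%) lower.

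Without those cells no NK or T list gene was among the 20 highest, which the choice of cells by these lists fixes. Ccl8, which attracts monocytes and T cells, led with a fold of 2.94 (1373 against 175 CPM), followed by Lyve1, a hyaluronan receptor (2.91), and Gas6, the ligand that bridges dying cells to the receptors AXL and MERTK (2.32). The lectin gene Fcna (2.13), C1qa (2.11, 1780 against 410 CPM), C1qc (2.10), C1qb (2.00), the carbonyl reductase gene Cbr2 (2.00), the haemoglobin scavenger receptor gene Cd163 (1.99) and the folate receptor gene Folr2 (1.65) were among the 20 highest. The rest of those 20 were Rcn3, Ednrb, Igfbp4, Fxyd2, Pmp22, Serpinb6a, Timp2, Enpp1 and the cell division genes Stmn1 and Top2a. A band of cells with 5000 to 8000 UMIs was added after the data were seen. Over all TAM 2 and other cells in it, the folds over the pooled classes were smaller. The band keeps cells with T or NK UMIs, so it differs from the comparison above in more than depth. Its pool of 726 other cells also has another make-up, with 24 Monocyte 1, 33 Monocyte 2 and 292 TAM 3 cells. Lyve1 (1.57), Cbr2 (1.09), Gas6 (1.08), C1qc (0.66), C1qa (0.60) and Folr2 (0.59) still passed 1.5-fold, while Ccl8 (0.49), Cd163 (0.48) and Timp2 (0.22) did not and Fcna turned (-0.24).

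Over all cells the 3 C1q genes were highest in TAM 2 among the 6 classes, a lead over TAM 3 that cells with 5000 to 8000 UMIs did not show (given with TAM 3). C1qa averaged 25.9, 78.2 and 629 CPM in Monocyte 1, 2 and 3, 42.1 in TAM 1, 1335 in TAM 2 and 761 in TAM 3. TAM 2 therefore stood first and TAM 3 second, with Monocyte 3 close behind TAM 3 and the other classes far lower. Summed UMIs gave a ratio of 3.40 (counting interval 3.30-3.50) over the pooled classes and 1.68 (1.62-1.74) over TAM 3. C1qb followed the same order (16.7, 81.4, 472, 47.7, 967 and 580 CPM), as did C1qc at lower levels (656 CPM in TAM 2 and 377 in TAM 3).

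C1q was not carried by every cell of the class. Of the 1113 TAM 2 cells, 612 (55.0%) had at least 1 C1q UMI, 437 had all 3 genes, 428 (38.5%) had 10 or more UMIs and 501 (45.0%) had none, while the highest cell had 283. Thinned to 2000 UMIs per cell, 45.5% (42.5-48.4%) of TAM 2 cells kept a C1q UMI, against 31.6% (28.7-34.6%) in TAM 3, 24.8% in Monocyte 3 (17 shallower cells left out) and 8.95% in TAM 1. In NK and T cells, which should lack the genes, the thinned shares were 5.79% and 5.91%, with 552 and 513 shallower cells left out. Those cells had no more than 2 C1q UMIs each, at median depths of 2241 and 1706 UMIs.

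Promoters (RefSeq, GRCm38.p6, 250 bases before to 50 after each start) are shown for 3 of the leading genes: the C1q chain genes C1qb and C1qc, whose levels kept the same order across the classes, and Ccl8, which had the largest fold. The C1qb and C1qc windows lie next to each other on chromosome 4, at chr4:136886151-136886450 and chr4:136892865-136893164 (both minus strand), and that of Ccl8 at chr11:82114935-82115234 (plus strand). Capitals mark GAGGAA, the core bound by the macrophage factor PU.1, on either strand (it reads TTCCTC on the other).
C1qb: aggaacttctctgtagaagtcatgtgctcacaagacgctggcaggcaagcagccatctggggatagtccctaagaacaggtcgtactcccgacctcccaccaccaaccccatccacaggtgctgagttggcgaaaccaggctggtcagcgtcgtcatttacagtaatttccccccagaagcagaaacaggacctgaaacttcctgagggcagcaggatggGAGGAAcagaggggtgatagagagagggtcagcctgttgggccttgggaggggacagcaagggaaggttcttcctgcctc
C1qc: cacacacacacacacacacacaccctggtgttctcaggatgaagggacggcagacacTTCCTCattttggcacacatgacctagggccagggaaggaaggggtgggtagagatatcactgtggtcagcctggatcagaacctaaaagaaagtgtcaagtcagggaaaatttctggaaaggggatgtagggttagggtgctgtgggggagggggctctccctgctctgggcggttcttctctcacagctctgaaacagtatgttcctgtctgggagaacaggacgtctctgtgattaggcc
Ccl8: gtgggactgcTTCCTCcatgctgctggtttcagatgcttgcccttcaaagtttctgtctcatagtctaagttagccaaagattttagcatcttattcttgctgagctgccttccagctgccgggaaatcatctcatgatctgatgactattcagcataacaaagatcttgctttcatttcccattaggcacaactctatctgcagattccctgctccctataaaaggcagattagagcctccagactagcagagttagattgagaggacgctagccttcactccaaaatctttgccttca
Each window holds 1 match, starting 30 bases before the start site in C1qb, 193 in C1qc and 240 in Ccl8. Of the other genes looked up, Cbr2 and Ccl12 hold 1 match and Mrc1 holds 3, and Folr2 (2 windows), Gas6 and Timp2 hold 0. The windows of Apoe hold 2, 0 and 1, and those of Ms4a7 hold 1 and 0. Of 32851 promoters of this length 28.3% hold the letters, so a match is common. PU.1's own gene Spi1 differed little, at 360 CPM in TAM 2 and 342 to 461 CPM in the other 5 classes.

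The other genes of the set were carried by smaller shares of TAM 2 cells, mostly the same cells that held C1q. Ccl8 averaged 17.9, 59.4 and 148 CPM in the monocyte classes, 7.39 in TAM 1, 1004 in TAM 2 and 557 in TAM 3. It was unevenly spread: 334 TAM 2 cells (30.0%) had a UMI, 131 had 10 or more, and 1 cell had 452. Folr2 was seen in 563 cells (50.6%) at 246 CPM, against 177 CPM in TAM 3 and 1.57 to 134 CPM elsewhere, and Lyve1 in 78 cells (7.01%) at 56.9 CPM, against 21.7 CPM in TAM 3 and at most 1.03 CPM in the other 4 classes.

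Of the TAM 2 cells with a Folr2 UMI 72.5% also had a C1q UMI, as did 76.0% of those with Ccl8 and 94.9% of those with Lyve1, against 55.0% of all TAM 2 cells. The 428 cells with 10 or more C1q UMIs averaged 2225 CPM of Ccl8, 425 of Folr2 and 142 of Lyve1, and the 501 cells without C1q averaged 239, 109 and 4.04 CPM. Ly6c2 and Il1b went the other way, at 597 and 844 CPM in the C1q-rich cells and 1294 and 1622 CPM in those without. The C1q-rich cells were somewhat deeper (median 8445 against 7333 UMIs) and held fewer lymphocyte genes, with an NK list sum of 312 against 1165 CPM, and the part of these values in the contrast was not tested.

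**Figure D2:**
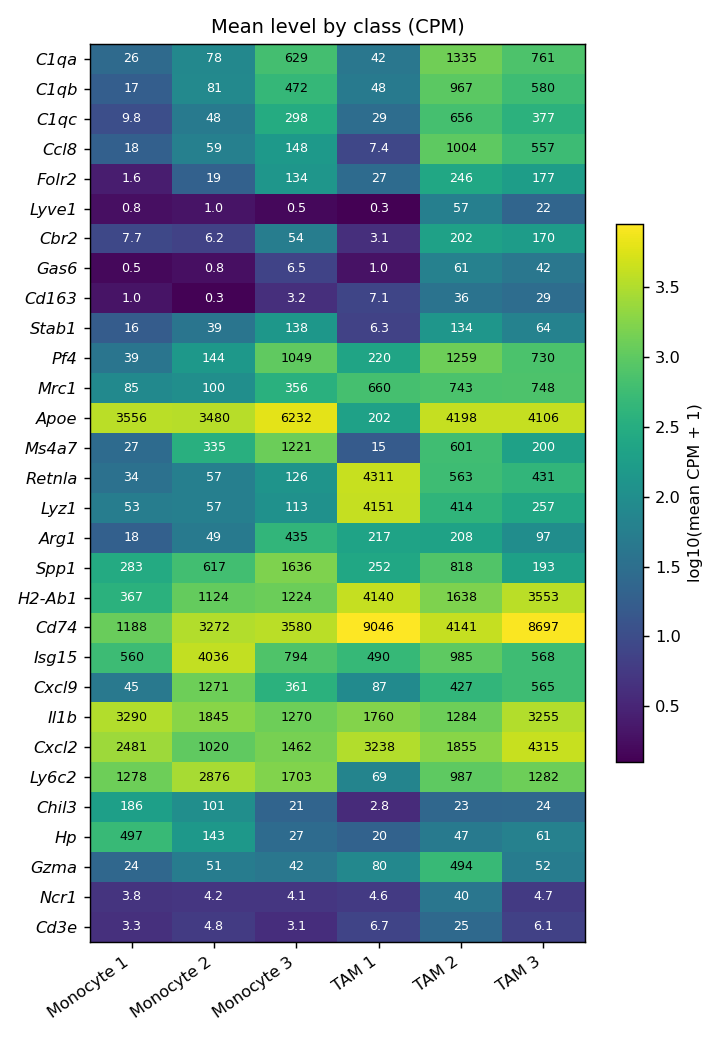
Mean CPM of 30 genes (rows) in the 6 monocyte and TAM classes (columns), with the colour on a log10 scale and the mean printed in each cell. Over all cells TAM 2 is highest for C1qa (1335 CPM), Ccl8 (1004 CPM) and Folr2 (246 CPM), though not for Ccl8 in cells with 5000 to 8000 UMIs, and also for the lymphocyte genes Gzma, Ncr1 and Cd3e.

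Genes of alternative activation, the state that interleukin-4 and related signals bring about, were mixed in TAM 2. Of the 12 list members, all of which passed the filter of 5% of cells, 6 were higher and 1 lower than in the pooled classes, with a median fold of 0.70, where the median over all genes tested was 0.08. Of all genes tested 3.47% were higher and 0.692% lower. Without cells holding T or NK UMIs the list counts were again 6 and 1 (median 0.78). Cd163 (1.57), Folr2 (1.41), the platelet factor gene Pf4 (1.19, 1259 against 550 CPM) and the monocyte chitinase-like gene Chil3 (-1.20, 23.4 against 60.5 CPM) differed most. In the band of 5000 to 8000 UMIs, where few Monocyte 1 and 2 cells are left, Cd163 (0.48) and Pf4 (0.45) were under 1.5-fold. Chil3 turned there (0.68). Mrc1, the mannose receptor, was at 743 CPM in TAM 2, 748 in TAM 3 and 660 in TAM 1, and at 85.3 to 356 CPM in the monocyte classes. Arg1, an arginase, was not a mark of the class, at 208 CPM against 217 in TAM 1 and 435 in Monocyte 3, and the osteopontin gene Spp1 was second at 818 CPM behind Monocyte 3 with 1636.

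Several of the genes lowest in TAM 2 against the pooled classes were highest in Monocyte 1. Hp, which encodes haptoglobin, was at 46.6 against 127 CPM (-1.35), Thbs1, thrombospondin, at 196 against 382 CPM (-0.95), and Ifitm6, Mcemp1 and F10 were lower by 0.94 to 1.06. Hp averaged 497 CPM and Thbs1 977 CPM in Monocyte 1. Without cells holding T or NK UMIs Hp (-1.66), Thbs1 (-0.98) and Chil3 (-1.39) were also lower. Dmkn, Plcb1, Gpr141, Mgst1, Msrb1 and B3gnt5 made up the rest of the 12 lowest with Chil3. Among cells with 5000 to 8000 UMIs, which leaves only 24 Monocyte 1 and 33 Monocyte 2 cells, several of these were not lower, among them Chil3 (0.68), Gpr141 (0.61), Dmkn (0.50), Mgst1 (0.36), B3gnt5 (0.34) and Thbs1 (0.05), and Hp was at -0.16. Ly6c2 stood at 987 CPM, above TAM 1 (69.2) and below each of the other 4 classes (1278 to 2876). In the band it was at 1134 CPM in TAM 2, above TAM 3 (1016) and Monocyte 3 (853).

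TAM 1 was the TAM class that differed more from TAM 2. Of 8676 genes tested 1032 (11.9%) were higher in TAM 2 and 544 (6.27%) lower, at similar depths, or 771 and 730 relative to the median of all genes. Ccl8 (6.35), the tetraspan gene Ms4a7 (4.91, 601 against 15.2 CPM), C1qa (4.83), Cbr2 (4.67), the lipid carrier gene Apoe (4.34, 4198 against 202 CPM) and C1qc (4.28) led. The 6 lowest were the ribonuclease gene Ear2 (-3.48), the lysozyme gene Lyz1 (-3.31, 414 against 4151 CPM), the retinoid enzyme gene Aldh1a2 (-3.15), the lectin gene Mgl2 (-3.11), Cebpe (-2.99) and Retnla (-2.93, 563 against 4311 CPM). Markers of other cells also differed: the conventional dendritic cell list (cDC2) summed to 1275 CPM in TAM 1 and 506 in TAM 2, and its part in these folds was not tested. Erythroid genes summed to 545 CPM in TAM 1 through 1 cell.

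The complement list had 8 of 9 members higher in TAM 2 than in TAM 1 and 0 lower (median 1.28, against 0.11 over all genes tested). Beside C1q they included C3 (2.62), the receptors C3ar1 (1.28) and C5ar1 (1.10), and the factor gene Cfb (1.05). Of 17 lysosomal genes 6 were higher and 0 lower (median 0.36), where 11.9% of all genes were higher, and the legumain gene Lgmn (2.86, 1158 against 155 CPM) and Cd63 (2.23) were among them. The transcription factor genes Maf (2.14) and Irf8 (1.87) were higher and Irf4 (-2.18) lower.

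Glycolysis and hypoxia genes were lower in TAM 2 than in TAM 1 in 12 of 18 list members and higher in 0 (median -0.81). Of all genes tested 6.27% were lower and 11.9% higher. Pfkp (-1.31), Hilpda (-1.24) and Pgam1 (-1.04) led the list. Against TAM 3, where 2.61% of all genes were lower, only Vegfa (-0.97, 72.8 against 147 CPM) and Ndrg1 (-0.63) of that list passed 1.5-fold, and 0 were higher.

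Of the other TAM classes TAM 3 was the closer to TAM 2. Across 5603 genes, the mean log2 profile of TAM 2 at 2000 UMIs correlated at r = 0.988 with Monocyte 3 and 0.985 with TAM 3, and at 0.950 with TAM 1. These are correlations across genes, which are not independent replicates. Of 8386 genes tested against TAM 3, 425 (5.07%) were higher in TAM 2 and 219 (2.61%) lower, or 351 and 282 relative to the median of all genes and 205 and 250 after thinning to 2000 UMIs. The 6 highest were Gzma (3.14), Nkg7 (2.81), Gzmb (2.66), the endothelial lipase gene Lipg (2.47, 74.8 against 9.39 CPM), Prf1 (2.45) and Klrd1 (2.22). The 6 lowest were the repressor gene Id3 (-1.52), Sgms2 (-1.44), the pattern receptor gene Clec4e (-1.38, 171 against 455 CPM), Tppp3 (-1.37), the neutrophil chemokine gene Cxcl1 (-1.36) and the interleukin gene Il1b (-1.34, 1284 against 3255 CPM).

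The higher C1q of TAM 2 over TAM 3 depended on which cells were compared. Thinning every cell to 2000 UMIs left the C1qa fold at 0.80, close to the 0.81 over all cells. Thinning keeps each cell's expected CPM, so this fold had to stay close and cannot test the part of depth. Cells with like UMI totals did not show the higher C1q. The band of 5000 to 8000 UMIs held 49.6% of TAM 2 cells and the deepest part of TAM 3, 30.4% of its cells. Among cells with 5000 to 8000 UMIs (552 TAM 2 and 292 TAM 3 cells, medians of 6712 and 5572 UMIs), C1qa averaged 1188 and 1125 CPM, a fold of 0.08 in place of 0.81. The folds of C1qb (0.01), C1qc (0.12), Folr2 (0.02), Gas6 (0.06) and Cbr2 (0.14) were as small. Ccl8 was lower in TAM 2, at 682 against 1056 CPM (-0.63 in place of 0.84), and a C1q UMI was seen in 48.7% of these TAM 2 and 49.0% of these TAM 3 cells.

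Several other differences from TAM 3 were also past 1.5-fold in the band. Spp1 was higher by 2.05 (860 against 204 CPM), Ms4a7 by 1.40 and the monocyte chemokine gene Ccl12 by 1.10 in TAM 2, and H2-Ab1 lower by 1.44 (1346 against 3650 CPM), Cxcl2 by 1.51 and Il1b by 0.95, where the Il1b fold over all cells was -1.34. Id3 (-1.14) and Clec4e (-0.96) were also less far apart, and Lyz1 (-0.85) and Mgl2 (-0.37) changed sign. Gzma stayed at 2.86, with 66 of the 552 TAM 2 cells and 5 of the 292 TAM 3 cells holding 10 or more NK list UMIs. In the same band the difference from TAM 1 was as wide as before, with folds of 4.35 for C1qa and -3.92 for Retnla.

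**Figure D3:**
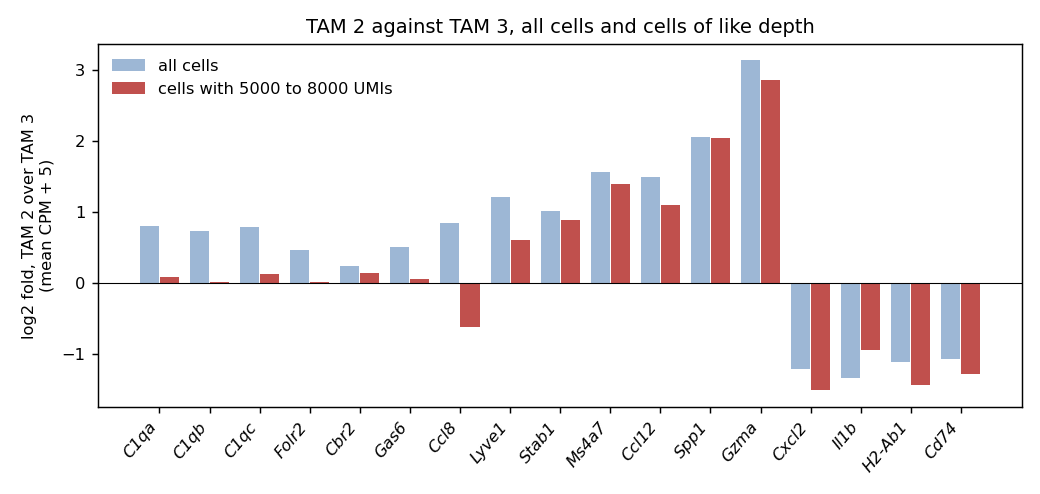
Log2 fold of TAM 2 over TAM 3 for 17 genes, over all cells (blue) and over cells with 5000 to 8000 UMIs (red). The bars of the C1q genes, Folr2, Cbr2 and Gas6 shrink to 0.14 or less in the band and that of Ccl8 changes sign to -0.63, while those of Spp1 (2.05) and H2-Ab1 (-1.44) stay large.

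Some iron and uptake genes were higher in TAM 2. Against the pooled classes, where 3.47% of all genes were higher, 3 of 8 iron and haem genes were higher and 0 lower (median 0.37; 4 and 0 without cells holding T or NK UMIs): Cd163, the transferrin receptor gene Tfrc (0.89) and Hmox1, which breaks haem down (0.82). Hmox1 averaged 102, 162 and 419 CPM in Monocyte 1, 2 and 3, 420 in TAM 1, 583 in TAM 2 and 453 in TAM 3, but in the band of 5000 to 8000 UMIs it was at 572 in TAM 2, 581 in TAM 3 and 667 in Monocyte 3, with no lead. Of 11 genes for uptake of dying cells 3 were higher and 0 lower, with a median of 0.06 that lay below that of all genes (0.08): Gas6 (1.95), the scavenger receptor gene Stab1 (0.93) and Timd4, a phosphatidylserine receptor of resident macrophages (0.72). Mertk, a receptor for the Gas6 product, was not high, at 16.4 CPM against 30.0 in TAM 3.

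Lipid genes differed by partner. Trem2, a lipid-sensing receptor, averaged 213 CPM in TAM 2, 304 in Monocyte 3, 125 in TAM 3 and 69.1 in TAM 1. The lipoprotein lipase gene Lpl was lower in TAM 2 (170 CPM) than in TAM 3 (276 CPM) and TAM 1 (759 CPM). Of 11 cholesterol synthesis genes 5 were higher than in TAM 3 and 1 lower, where 5.07% of all genes were higher and 2.61% lower. Idi1 (0.90, at 11.6 CPM in TAM 3) led them. Among growth factors Igf1, at 6.49 CPM in TAM 3 and at most 1.17 CPM in the other 4 classes, was highest in TAM 2 (0.65 over TAM 3, 0.52 in the band), and the epidermal growth factor family gene Areg was lower than in TAM 3 (-1.28) and TAM 1 (-2.11).

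Monocyte 3, which held the most macrophage RNA of the monocyte classes, had C1q and Folr2 (134 against 246 CPM) at lower levels. Other genes of the set were further apart. Gas6 was at 61.5 against 6.55 CPM, Cbr2 at 202 against 53.9 CPM and the endothelin receptor gene Ednrb at 81.8 against 8.52 CPM in TAM 2 and Monocyte 3. The phosphodiesterase gene Pde4d (16.0 against 53.6 CPM), Arg1, Ms4a7 and Havcr2, which encodes TIM-3 (-1.02), were lower in TAM 2. In the band C1qa was 0.21 higher in TAM 2 than in Monocyte 3, Folr2 0.41 higher, Ccl8 2.12 higher and Cbr2 1.69 higher.

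MHC class II was lower in TAM 2 than in both other TAM classes. Of the 7 list members that passed the filter, 7 were lower than in TAM 1 (median -1.25) and 6 lower than in TAM 3 (median -1.07), with 0 higher in either. Of all genes tested, 6.27% were lower than in TAM 1 and 2.61% lower than in TAM 3. H2-Ab1, a chain of I-A, was at 367, 1124 and 1224 CPM in the monocyte classes, 4140 in TAM 1, 1638 in TAM 2 and 3553 in TAM 3. TAM 2 thus lay between the monocyte classes and the other TAMs, as did the invariant chain gene Cd74 (4141 CPM, against 9046 in TAM 1 and 8697 in TAM 3). The peptide loader gene H2-DMb1 differed most from TAM 1 (-1.85), and Ciita, the switch for these genes, was at 40.5 CPM against 86.1 and 74.8.

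Inflammatory cytokine genes were lower in TAM 2 than in TAM 3 in 8 of 11 list members, where 2.61% of all genes were lower. Of these members 0 were higher, and the median was -0.96, against 0.06 over all genes tested. Cxcl1 (-1.36), Il1b, Cxcl2 (-1.22, 1855 against 4315 CPM) and the cyclooxygenase gene Ptgs2 (-1.04, 94.0 against 198 CPM) differed most. Against TAM 1, 7 of 13 list members were lower and 2 higher, where 6.27% of all genes were lower and 11.9% higher. Of the cAMP-inducible genes beside them, Nr4a1 (-0.93), Nr4a2 (-0.96) and Pde4b (-0.91) were also lower than in TAM 3. Cd274, which encodes the inhibitory ligand PD-L1, was at 47.3 CPM in TAM 2, 59.1 in TAM 1 and 93.1 in TAM 3.

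Genes stimulated by type I interferon were higher in TAM 2 than in TAM 1 in 12 of 15 members and than in TAM 3 in 8 of 15, with 0 lower in either. Of all genes tested, 11.9% were higher than in TAM 1 and 5.07% higher than in TAM 3. Isg15 was at 560, 4036 and 794 CPM in Monocyte 1, 2 and 3, 490 in TAM 1, 985 in TAM 2 and 568 in TAM 3. TAM 2 was thus second, far below Monocyte 2, and in the band its fold over TAM 3 was 0.81. Ifit1 (1.27), Ifit3 (1.24) and Usp18 (1.18) differed most from TAM 3. Of 15 genes that interferon-gamma induces, 1 was higher and 4 lower than in TAM 3 (median -0.40), where 5.07% of all genes were higher and 2.61% lower. Cxcl9, a ligand of CXCR3 on T and NK cells, was at 427 CPM in TAM 2 and 565 in TAM 3, but at 517 and 473 CPM in the band. Irf1, Gbp4 and Cd274 were lower than in TAM 3 by 0.78, 0.84 and 0.91.

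Of the 6 chemokines that attract monocytes, 4 were higher in TAM 2 than in TAM 1 (Ccl8, Ccl12, Ccl7 and Ccl2) and 1 lower (Ccl9). Of all genes tested 11.9% were higher and 6.27% lower. Ccl12 was at 781 CPM in TAM 2, 908 in Monocyte 3, 802 in Monocyte 2, 275 in TAM 3 and 36.7 in TAM 1. Ccl7 was at 1339 CPM and Ccl2 at 1333 CPM, close to TAM 3 (1307 and 1308 CPM) and below Monocyte 3 (1433 and 1746 CPM). Ccl6 was at 3231 CPM in TAM 2, 4607 in TAM 1 and 4502 in TAM 3.

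**Figure D4:**
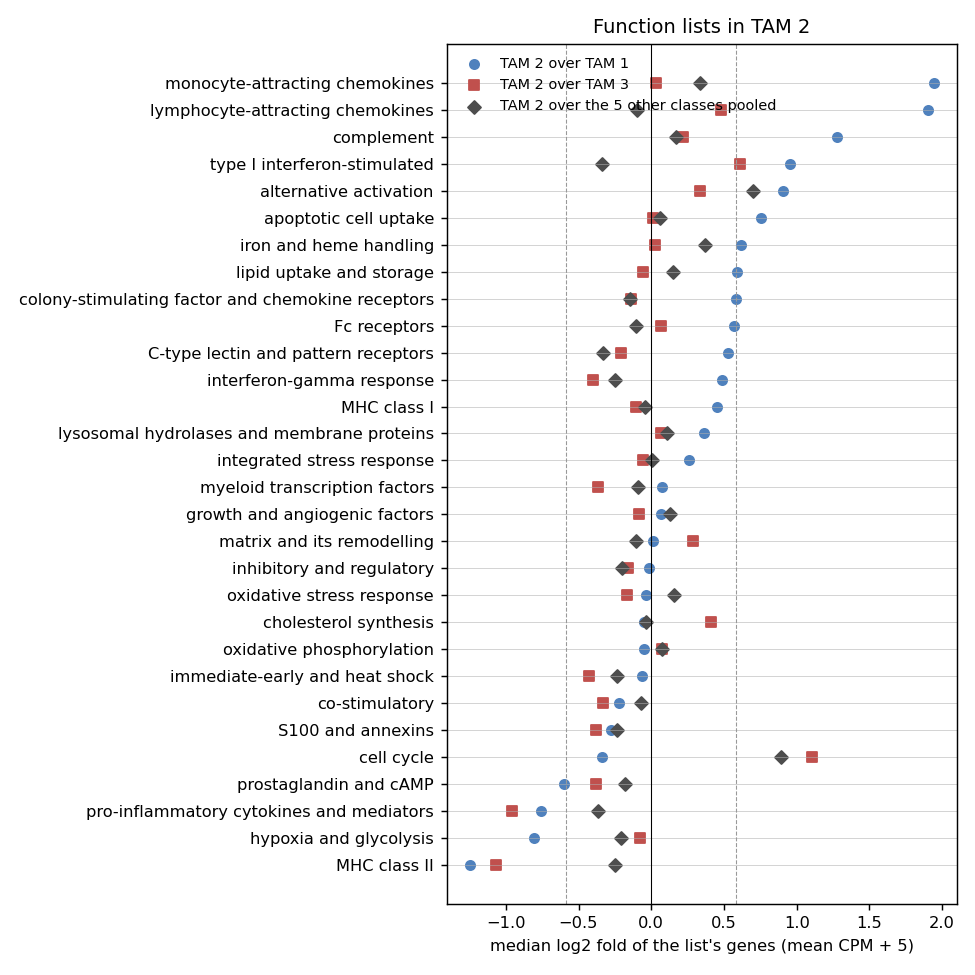
Median log2 fold of the genes of 30 function lists in TAM 2 over TAM 1 (blue circles), TAM 3 (red squares) and the 5 other classes pooled (grey diamonds), with dashed lines at 1.5-fold. MHC class II is lowest over TAM 1 (-1.25) and TAM 3 (-1.07), and chemokines and complement are highest over TAM 1.

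Over all cells, cell division genes were higher in TAM 2 than in the other classes except TAM 1. Mki67, a mark of cells in division, was at 6.82 to 15.0 CPM in TAM 3 and the monocyte classes, 56.2 in TAM 2 and 76.0 in TAM 1. Of the 11 cell cycle members that passed the filter, 10 were higher than in the pooled classes and 0 lower (median 0.89), where 3.47% of all genes were higher. A member passes if enough cells of either group hold it, so it could pass through the deeper TAM 2 cells alone. How many did so was not counted, so these list counts are partly set by the filter. Without cells holding T or NK UMIs 8 of 10 were higher, as were 3.63% of all genes. The band of 5000 to 8000 UMIs leaves few Monocyte 1 and 2 cells in the pooled classes. There the Mki67 fold over the pooled classes was 0.42, under 1.5-fold, while Top2a (0.77) and Stmn1 (0.61) passed it. Over Monocyte 3 in the band, Mki67 (0.54) and Stmn1 (0.58) were under 1.5-fold and Top2a (0.63) was not. At least 10 UMIs of the list were found in 70 TAM 2 cells (6.29%), 42 TAM 1 cells (9.40%), 1 TAM 3 cell and 4 Monocyte 3 cells. Of these 70 cells 36 had no T or NK list UMI, with a macrophage list sum of 15548 CPM. Those 70 were among the deepest of the class, with a median of 9326 UMIs. At 2000 UMIs per cell, at least 1 UMI of the list was found in 26.7% (24.1-29.4%) of TAM 2, 28.0% (23.8-32.4%) of TAM 1 and 19.4% (16.9-22.0%) of TAM 3 cells.

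TAM 2 had the smallest share of cells closest to their own class among the 6 classes. This share depends on how near the class means lie to each other as well as on spread within a class. The spread was not compared between classes. Each cell was thinned to 2000 UMIs and set against the mean profile of all 14 annotated classes, leaving the cell itself out. Of the 1113 TAM 2 cells 401 (36.0%) were closest to TAM 2, 214 (19.2%) to Monocyte 3, 163 (14.6%) to TAM 3 and 120 (10.8%) to Monocyte 2. In the other 5 classes 63.1% (TAM 3) to 89.9% (Monocyte 1) of cells were closest to their own class. Few TAM 2 cells were closest to NK cells (8) or T cells (6).

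The genes that varied most among TAM 2 cells at 2000 UMIs were the mast cell protease gene Cma1, Ccl8, Retnla, S100a9, the mast cell gene Cpa3, S100a8, the ferritin gene Fth1, the haem oxygenase gene Hmox1, Lyz1 and Cxcl9. The variance over the mean was 72.3 for Cma1, 30.1 for Ccl8 and 26.4 for Retnla, where the median of 4764 genes was 1.04. Cma1 and Cpa3 were each seen in 0.27% of the thinned cells and S100a9, of neutrophils and monocytes, in 1.26%, so a few cells carried those values. Ccl8 (20.7% of thinned cells), Hmox1 (31.0%), Cxcl9 (16.4%), Retnla (12.2%) and Lyz1 (15.5%) varied over many cells. Retnla and Lyz1 together reached 10 UMIs in 139 TAM 2 cells (12.5%), against 282 of the 447 TAM 1 cells.

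The leading genes of CT26 TAM 2 were then read in the 3 melanoma libraries, which took no part in the clustering. Those libraries were annotated separately, so a shared class name does not mean the same cells, and each is another condition. Of the 20 genes leading without T or NK cells, 15 were highest in the class called Monocytes 1 among the 7 monocyte and macrophage classes of Ptgs+/+ tumours, as were 11 in Ptgs-/- tumours and 6 after NK depletion. With cells weighted by depth these counts were 16, 14 and 11, in the same order but closer together, so the gaps depend on the weighting. None of the 20 was highest in the melanoma class called TAM 2 in any of the 3 libraries. Some of the levels behind the 15 were low. Fcna and Fxyd2 averaged 11.2 CPM, Lyve1 16.5 and Enpp1 22.3 over the 226 Monocytes 1 cells of the Ptgs+/+ library. In the NK-depleted library TAM 1 and TAM 4 were each highest for 5 of the 20, or for 4 and 2 with cells weighted by depth. The share of all genes highest in each class was not counted. Class depths also differ, from a median of 1199.5 UMIs in TAM 4 to 9463 in Mono Mac of the Ptgs+/+ library. These counts therefore describe the 20 genes only and do not match classes between the tumours. Of the 20 genes leading over all cells, NK cells were highest among all classes for 11, 11 and 7 and T cells for 7, 5 and 7. In the NK-depleted library Gzma and Ncr1 averaged 0 CPM in every class compared, so no class was highest for them. The cells still called NK cells there were highest for T cell genes such as Cd3g, Thy1 and Lck.

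C1qa averaged 47.7, 264 and 217 CPM in the melanoma class TAM 2 of the Ptgs+/+, Ptgs-/- and NK-depleted libraries, and 989, 1636 and 1369 CPM in Monocytes 1. Cbr2 averaged 353, 336 and 294 CPM in Monocytes 1 and at most 9.29 CPM in melanoma TAM 2, against 202 CPM in CT26 TAM 2. Ccl8 was highest in Monocytes 1 at 133, 508 and 104 CPM, each below the 1004 CPM of CT26 TAM 2. Folr2 averaged 155, 261 and 146 CPM in Monocytes 1 and 246 CPM in CT26 TAM 2. C1qa was also high in melanoma TAM 1 (889, 1699 and 1559 CPM). In melanoma Monocytes 1, 2 of 226 cells of the Ptgs+/+ library and 8 of 695 of the Ptgs-/- library had 10 or more NK list UMIs. These shares lay far below the 124 of 1113 in CT26 TAM 2. The 0 of 1108 cells of the NK-depleted library cannot be compared, since NK cells were removed there. The tumour line, mouse strain and day differ between the 2 tumours and cannot be told apart.

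**Figure D5:**
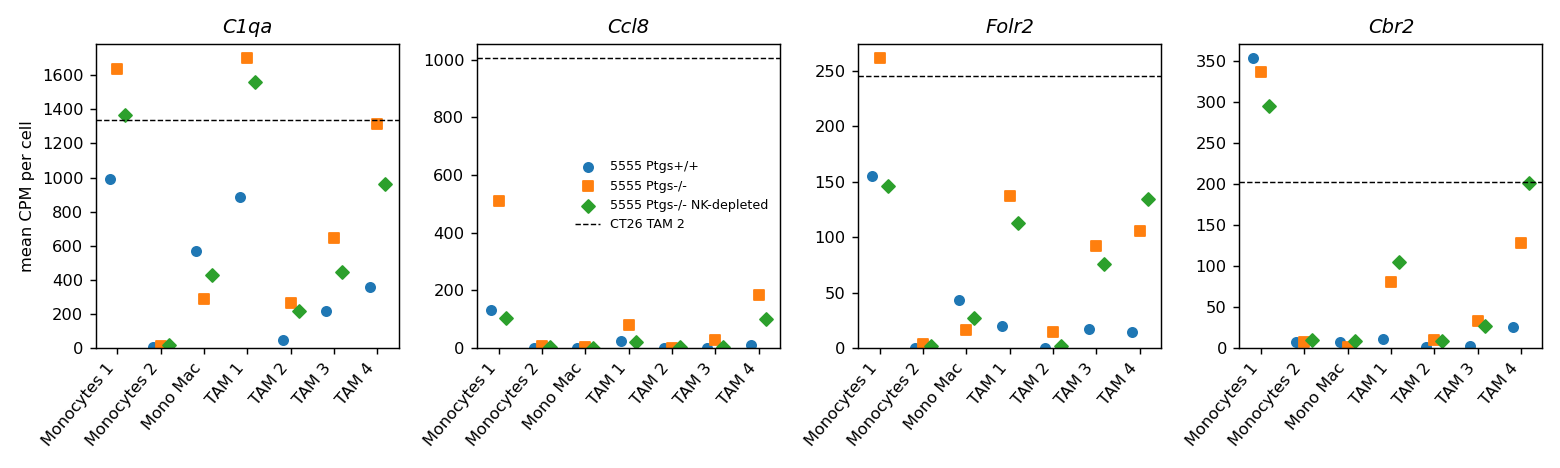
Mean CPM of C1qa, Ccl8, Folr2 and Cbr2 in 7 monocyte and macrophage classes of the 5555 Ptgs+/+ (circles), Ptgs-/- (squares) and NK-depleted Ptgs-/- (diamonds) libraries, with the level in CT26 TAM 2 as a dashed line. Ccl8, Folr2 and Cbr2 are highest in Monocytes 1 in each library and near 0 in the class that shares the name TAM 2.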

How the data were processed

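The matrix of 19427 genes was deposited by the authors as log2 values per cell. Cell Ranger 3.0.2, Partek and the build mm10 are listed in the submitters' processing notes, without settings. No header states the transformation, so it was tested: undone as log2(CPM + 1), every CT26 cell summed to the same total (largest gap 0.0023%). Of values above 0, 99.93% were whole multiples of 1 UMI (within 0.1 UMI plus 0.01%), which gave UMIs; 18 symbols held parts of a UMI.

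Cell classes are the authors' own; no cells were reclustered, no doublet caller was run and free RNA was not subtracted. Folds count genes in at least 5% of cells of either group (10% for named genes), and were tested on simulated data. Of the 11872 melanoma cells, 36 without annotation and 18 with shared barcodes were left out; 23 barcodes occur in both tumours, 1 of them in TAM 2. Values of near-identical family members, such as the Ear genes, are uncertain.

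Members, the 30 function and 16 marker lists, and alternatives were chosen with earlier results of these data known. Named genes are the 12 highest and 12 lowest against the pooled classes (20 without T and NK cells), 6 and 6 against TAM 1 and TAM 3, the 10 most variable, list members with the largest folds, and a short fixed set. Other genes beside them, and the promoters, were chosen after values were seen. Some list members are not reported here. UMI depths per cell are in the report. Work was done in Python 3.11.15 with numpy, pandas and scipy.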

Additional observations from a re-analysis of the deposited data

How the results depend on the processing

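TAM 2 rests on 1 library, so counts of genes describe size only and followed the settings. Against the pooled classes the 291 higher genes were 474 with a pseudocount of 1, 108 with 20, 442 without a detection filter, 161 with a filter of 10% of cells, 128 after thinning to 2000 UMIs and 4120 as a difference in mean log2 level. The 58 lower genes were 23 with a pseudocount of 20, 3 as a difference in mean log2 level, 88 relative to the median of all genes, 95 with the other classes weighted equally, 89 without cells holding a T or NK list UMI and 116 among cells with 5000 to 8000 UMIs; the last 2 settings were chosen after seeing the data. Against TAM 1, a pseudocount of 20 gave 510 higher and 312 lower genes. Against TAM 3, higher genes were 689 with a pseudocount of 1, 147 with 20, 649 without a filter, 223 with a filter of 10%, 205 after thinning and 3480 as a difference in mean log2 level, and lower genes were 130 with a pseudocount of 20 and 51 as a difference in mean log2 level. TAM 2 cells were deeper than the pooled cells (median 7771 against 3891 UMIs), and the cause of these changes was not tested.

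Function lists with a median past 1.5-fold numbered 2 against the pooled classes (0 with a pseudocount of 20, 22 as a difference in mean log2 level, 1 with the filter of 10% and 1 after thinning), 12 against TAM 1 (6 with a pseudocount of 20) and 4 against TAM 3 (14 as a difference in mean log2 level). The share of all cells was 14.7% among cells with at least 2000 UMIs. Weighted by depth, Monocytes 1 of the NK-depleted melanomas was highest for 11 of the 20 leading genes in place of 6.

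Signs changed for 28 of the values of single genes. As a difference in mean log2 level Cytip (0.03), Ifit1bl1 (0.10) and Mgst1 (0.06) turned against the pooled classes. Without cells holding T or NK list UMIs, a choice that by its construction takes out cells with these genes, Gzmb (-0.66), Klrd1 (-0.40), Ms4a4b (-0.85), Ptprcap (-0.10) and Sept1 (-0.04) turned against the pooled classes, Gzmb (-0.48), Klrd1 (-0.31) and Top2a (0.07) against TAM 1, and Gzmb (-0.43), Klrd1 (-0.27), Ptprcap (-0.34) and Sept1 (-0.07) against TAM 3. Among cells with 5000 to 8000 UMIs, where few Monocyte 1 and 2 cells are left, B3gnt5 (0.34), Chil3 (0.68), Dmkn (0.50), Fcna (-0.24), Gpr141 (0.61), Ly6c1 (0.33), Ly6c2 (0.43), Mgst1 (0.36), Serpinb6a (-0.06) and Thbs1 (0.05) turned against the pooled classes, and Ccl8 (-0.63), Lyz1 (-0.85) and Mgl2 (-0.37) against TAM 3. Of the 10 most variable genes 8 were among the first 10 at 1000 UMIs.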
